A study of Arachis hypogaea with 15 samples.

Results

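The blade and the stalk of the peanut leaf were compared in this data set by setting the petiole, which carries the leaf and connects it to the stem, against the leaflets that it bears. The petiole libraries were WT_PE1 to WT_PE3, and the reference was the mean of the terminal leaflet (WT_TL1 to WT_TL3) and the lateral leaflet (WT_LL1 to WT_LL3), each leaflet group with equal weight. These 9 libraries are 9 of the 15 in the series, and 39031 of the 59878 genes in the deposited table could be tested. All plants of this comparison were wild-type cultivated peanut (Arachis hypogaea), sampled 40 days old from a growth chamber (22 °C, 70% relative humidity, 16 h of light), with no transgene or treatment named. The other 6 libraries were shoot apices of the wild type and of a mutant. They enter here through the shared estimate of spread and the filter on low values, and the wild-type apex also gives a level for orientation. The sample titles write WT_DL for the terminal and WT_PL for the lateral leaflet, so the leaflet columns, named as above, were matched to samples by the tissue that each label gives. The labels do not say whether the 3 libraries of a tissue came from separate plants or from pools, so the p-values measure the spread between these libraries, which may be technical.

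Peanut leaves are compound, with 2 pairs of leaflets on a petiole and rachis. A petiole is a load-bearing and conducting organ with much vascular and fibre tissue under a green cortex, while a leaflet is a flat organ made mainly of photosynthetic mesophyll between epidermal layers with stomata. The 2 organs arise from 1 primordium. Regulators of the KNOX, BELL, YABBY, TCP and growth-regulating factor families are known to divide leaf primordia into stalk, boundary and blade. In bulk tissue, fewer cells of a type and less RNA per cell cannot be told apart, and this holds for every level given here.

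Levels are FPKM (fragments per kilobase of transcript and 1e6 fragments), which are per length and so comparable between genes within a library. Total FPKM per library was 596993 to 598325 in the petiole and 610028 to 620637 in the leaflets. The steps between low values gave only a rough depth, of about the same size in all 9 libraries (lowest 18.7, highest 19.9, in units of 1e6 fragments). Replicates lay close together: for genes at 10 FPKM or more, the median coefficient of variation within a tissue was 4.1% to 4.57%. Over log2(FPKM + 1) of the genes tested, the correlation was 0.989 to 0.990 between petiole libraries, 0.980 to 0.982 between the leaflet groups, 0.847 to 0.848 between petiole and lateral leaflet, and 0.842 to 0.845 between petiole and terminal leaflet. The petiole was nearer to the wild-type shoot apex, at 0.922 to 0.923.

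The petiole and the leaflets differed at most genes. Of 39031 genes tested with limma, 12004 were higher in the petiole (30.8% of those tested) and 17196 were lower (44.1%), at a Benjamini-Hochberg adjusted p under 0.05. At least 2-fold changes were fewer, with 2322 genes higher (5.95%) and 4391 lower (11.3%). All 3 petiole libraries lay above all 6 leaflet libraries for 10389 genes (26.6%) and below them for 14920 (38.2%). The median log2 change over all genes tested was -0.11, so a list with a median near that value moved no more than the average gene. The split of the calls depends on the scaling: with quantile normalization of the log2 values, which raised the median change of all genes to 0.02, 15111 genes were higher and 13656 lower. In the authors' deposited table, 51412 genes had a value for petiole against lateral leaflet and 51688 for petiole against terminal leaflet. A q-value under 0.05 was given to 15582 genes higher and 24142 lower in the petiole against the lateral leaflet. Against the terminal leaflet it was given to 16240 higher and 23754 lower. Within the 39031 genes of the limma test, these counts fell to 13407 and 19857 for the lateral leaflet. For the terminal leaflet they fell to 14097 and 19046.

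**Figure D1:**
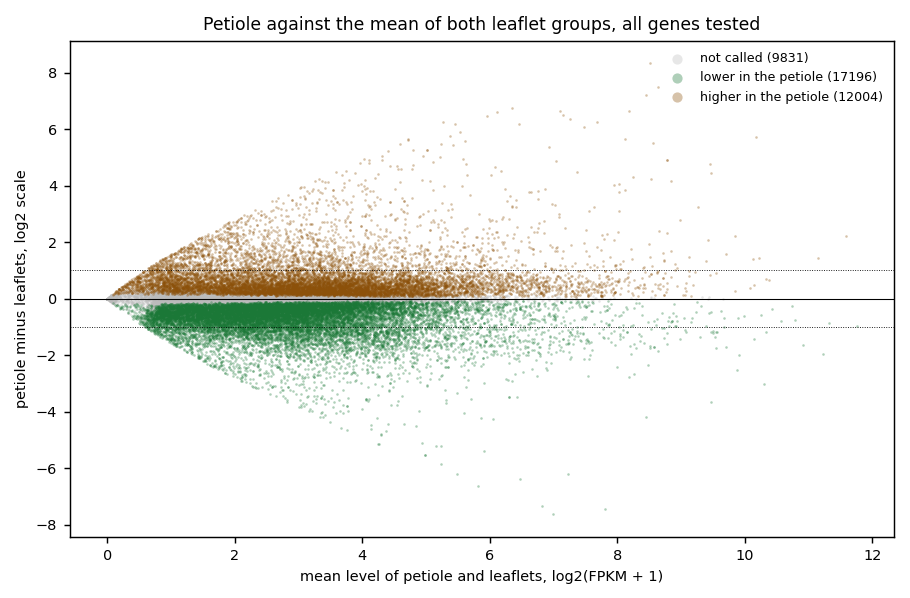
Each point is 1 of 39031 genes tested, with its mean level over petiole and leaflets on the x axis, as log2(FPKM + 1), and the petiole minus leaflet difference on the y axis, on the log2 scale. Dotted lines mark a 2-fold change, the 12004 brown points are genes called higher in the petiole, the 17196 green points genes called lower, and the grey points were not called.

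Because so many genes passed the test, gene lists are described below by their counts and medians beside those of all genes. Changes are differences of log2(FPKM + 1), petiole minus the mean of both leaflet groups, which understates the change of genes with low levels. Product names and positions are those of the deposited table, which names no genome build for them. The submitters' processing notes list only TAIR10, an Arabidopsis build, while the gene IDs and chromosomes are those of peanut, so the positions are given without a build. Genes named from a list are its largest rises, its largest falls and its most abundant member, so a rise beside a fall among them is set by that choice. The ± sign gives the standard error of the fit. Except where another count is given, each list kept the direction in which more of its genes were called under the 3 other scalings tried.

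The largest rise was in a plant protein family of unclear function. Organ-specific protein P4-like (arahy.JI131A.1, chromosome 3, 4656473 to 4657557) was at 729.7, 720.02 and 719.9 FPKM in the petiole libraries, at 0.98, 0.85 and 1.48 in the terminal leaflet and at 1.32, 1.31 and 1.69 in the lateral leaflet. The organs did not overlap, and the log2 change was 8.33 ± 0.075 (SE) (limma adjusted p = 1.15e-18). A related gene on chromosome 13, arahy.RC1NFA.1, was among the most abundant transcripts of the petiole, at 2254, 2305 and 2267 FPKM against 37.2 to 47.7 FPKM over the 6 leaflet libraries. Of the 24 organ-specific and BURP-domain genes tested, 19 were higher and 4 lower in the petiole, 16 and 4 of them by at least 2-fold, with a median log2 change of 3.21. The list's share of the summed FPKM was 0.848% to 0.868% in the petiole, 0.174% to 0.178% in the terminal leaflet and 0.0924% to 0.0952% in the lateral leaflet.

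The same list held the largest fall. RD22-like (arahy.VT6DM9.1, chromosome 16, 145050805 to 145053453) encodes a BURP-domain protein; RD22 is known in Arabidopsis as a drought- and abscisic acid-responsive gene. Its level was 0.13, 0 and 0.56 FPKM in the petiole, 337, 338 and 330.3 in the terminal leaflet and 166, 164 and 171 in the lateral leaflet. That is a log2 change of -7.62 ± 0.095 (SE) (limma adjusted p = 2.04e-17), and the terminal leaflet libraries all lay above the lateral ones. Another gene on the same chromosome, RD22 arahy.IP9R22.1, was at 2.75, 3.16 and 2.27 FPKM in the petiole against 181 to 411 in the leaflets. Both RD22 genes lay below all leaflet libraries in the petiole.

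Other leading rises included genes of saponin synthesis and genes with defence or storage names. MLP-like protein 34, of the major latex protein family (arahy.3C2BWJ.1, chromosome 18, 117143614 to 117145134), was at 275, 272 and 266 FPKM in the petiole and at 0.96 to 2.53 FPKM in the 6 leaflet libraries, a log2 change of 6.63 ± 0.075 (SE). The 11S-globulin-related glutelin type-A 2 (arahy.BQM6WK.1, chromosome 13, 139734324 to 139737820), whose name comes from a rice seed storage protein, was at 273, 291 and 273 FPKM against 1.73 to 2.64. Its counterpart on chromosome 3 (arahy.B8VHIV.1) was at 175, 177 and 164 FPKM against 1.12 to 1.87. Both were petiole-high at every library, and the wild-type apex means were 198 and 119.8 FPKM. A stress-response A/B barrel gene (arahy.XX1T89.1, chromosome 18) rose by 6.36, and the thaumatin-related protein P21-like (arahy.9J4G75.1, chromosome 2) rose by 6.46. Soyasaponin III rhamnosyltransferase (arahy.9RF0MR.1, chromosome 20) was at 157, 166 and 158 FPKM in the petiole, and 3 of its 6 leaflet libraries were listed at 0. A second such gene (arahy.AX22IR.1, chromosome 10) was at 74.5, 77.3 and 73.4 FPKM in the petiole and was listed at 0 in all 6 leaflet libraries (limma adjusted p = 3.28e-21). The wild-type apex means of both rhamnosyltransferase genes, in that order, were 132.8 and 99.98 FPKM.

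The leading falls included several oxidases and hydrolases. A cytochrome P450 named 7-ethoxycoumarin O-deethylase (arahy.WK2RNV.1, chromosome 7, 76288947 to 76291719) was at 1.41, 1.87 and 1.46 FPKM in the petiole, 442, 434 and 439 in the terminal leaflet and 443, 458 and 437 in the lateral leaflet. The log2 change was -7.43 ± 0.061 (SE) (limma adjusted p = 3.15e-19), and the leaflet groups overlapped each other. Nudix hydrolase 3 (arahy.GHRN5T.2, chromosome 17) was at 0.47, 0.35 and 0.31 FPKM against 214 to 234 in the leaflets, and primary amine oxidase (arahy.8DR635.1, chromosome 11) at 0.18, 0.14 and 0.09 against 101 to 119. Amidase C869.01 (arahy.R6RTRV.2, chromosome 13) fell by 5.86 and patatin-like protein 2 (arahy.D6LT1N.1, chromosome 15), a lipid acyl hydrolase, by 5.54 on the log2 scale. The patatin-like gene has the same values in all 15 libraries as another gene of the table, so reads of these copies may not have been separated. In all, 1963 tested genes share all 15 values with at least 1 other gene.

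Photosynthesis genes were lower in the petiole as a group, but remained strongly expressed there. Of the 96 photosystem and antenna genes tested, 87 were lower and 4 higher in the petiole, with a median log2 change of -1.22 against -0.11 for all genes. Their summed level was 12600 to 12660 FPKM in the petiole, 28940 to 30680 in the terminal leaflet, 25050 to 25700 in the lateral leaflet and 8168 to 8589 in the wild-type apex. The petiole thus lay between apex and leaflets. The most abundant member, the light-harvesting protein LHCII type 1 (arahy.QXM1B7.1, chromosome 13), was at 2362, 2332 and 2355 FPKM in the petiole, 4856, 4974 and 5271 in the terminal leaflet and 4129, 3953 and 4235 in the lateral leaflet. Its log2 change was -0.95 ± 0.031 (SE) (limma adjusted p = 7.6e-13). The largest falls in the list were 2 genes for the photosystem I antenna protein 6, with 12.9, 15.5 and 13.4 FPKM in the petiole against 68.1 to 87.6 in the leaflets for the chromosome 3 gene (arahy.3PP5US.1) and a log2 change of -2.18 for the chromosome 13 gene (arahy.YZB02J.1).

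Carbon fixation genes were lower as well. Rubisco small chain 1 genes, which encode the nuclear subunit of the enzyme that fixes carbon dioxide, fell by 1.95 (arahy.97RMNS.1, chromosome 10), 3.01 (arahy.I56F9F.1, chromosome 20) and 3.64 (arahy.FHUH7B.1, chromosome 10) on the log2 scale. The last was at 104, 102 and 102 FPKM in the petiole, 1421, 1573 and 1655 in the terminal leaflet and 1100.03, 1068 and 1081 in the lateral leaflet. In the whole Calvin cycle list 32 of 38 genes were lower and 4 higher, with a median of -0.92. The 3 higher members that the naming rule picked were 2 transketolase genes, an enzyme shared with the pentose phosphate pathway, and 1 Rubisco activase gene. The chromosome 12 transketolase (arahy.A52I0E.1) was at 65.7, 66.7 and 68.1 FPKM in the petiole against 8.39 to 10.2 in the leaflets. Its chromosome 2 counterpart (arahy.N7BB1S.1) was at 58.2, 58.4 and 62.2 against 12.3 to 14.1, and the activase (arahy.ZDGJ2D.1, chromosome 2) rose by 0.64.

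Photorespiration, the salvage route for the oxygenation product of Rubisco, showed isoforms with opposite changes. Glycine cleavage H protein genes arahy.NJ55ST.1 and arahy.DGK5DJ.1 on chromosome 15, which share all their values, were at 12.1, 11.9 and 11.5 FPKM in the petiole against 141 to 147 in the leaflets. H protein 2 on chromosome 14 (arahy.CU25UJ.1) did the reverse, at 67, 65.7 and 63.4 FPKM against 8.99 to 14.2, as did the chromosome 4 gene (arahy.Z3L6UJ.1), at 71.2, 73.7 and 76.6 against 18.1 to 23.1. Serine--glyoxylate aminotransferase (arahy.NTNX6Y.2, chromosome 7), a peroxisomal enzyme of the pathway, fell by 2.74. In all, 14 of 22 genes were lower (63.6%) and 7 higher (31.8%), beside 44.1% and 30.8% of all genes.

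Genes of the plastid ribosome were also lower. Chloroplast ribosomal proteins encoded in the nucleus gave 95 lower and 2 higher of 105, 83 of them lower by at least 2-fold, with a median of -1.53. The most abundant, L12 (arahy.816STY.1, chromosome 10), was at 316, 354 and 357 FPKM in the petiole, 1245, 1111 and 1109.7 in the terminal leaflet and 1078, 1103 and 1286 in the lateral leaflet. L24 (arahy.KVK1VL.1, chromosome 18) showed the largest fall, of 2.85. Cytosolic ribosomal proteins differed from this, with 184 higher and 86 lower of 339 and a median of 0.14. Chlorophyll and carotenoid synthesis genes were lower for 45 of 54 (median -1.04). Protochlorophyllide reductase (arahy.9Z13IR.1, chromosome 3), the light-dependent step of chlorophyll synthesis, was at 279, 273 and 272 FPKM in the petiole against 558 to 578 in the leaflets. Among genes annotated as plastid-encoded, 58 of 123 were lower, 4 higher and 61 not called. Their median of -0.28 had a standard deviation of 0.22 over the 3 petiole libraries, the widest of any list, and some members lie on numbered nuclear chromosomes or share their values with other genes, so the source of their reads is uncertain.

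**Figure D2:**
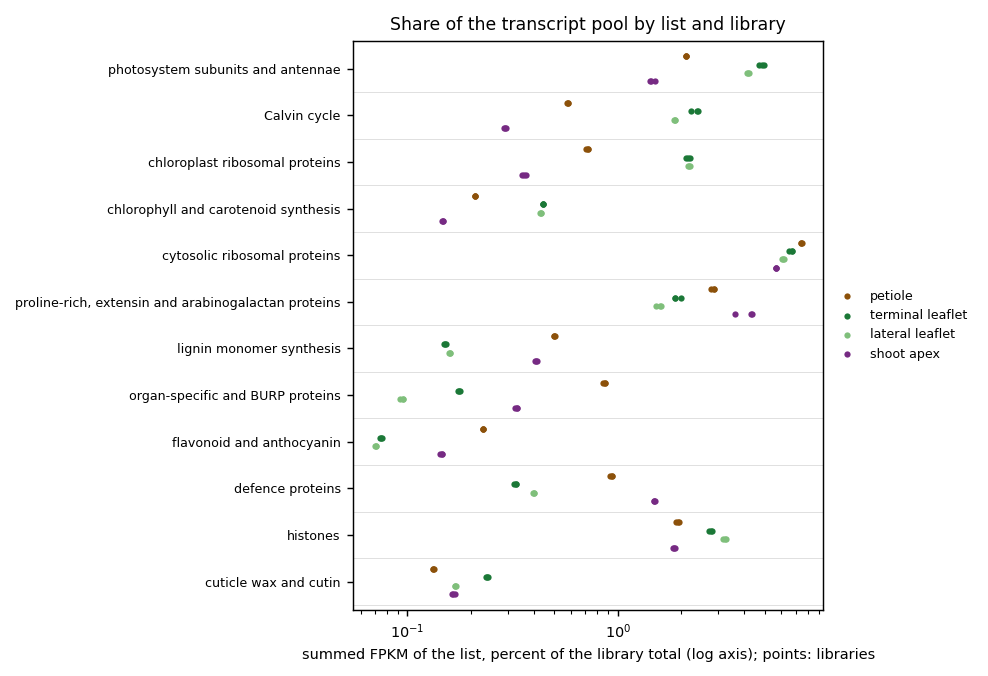
The x axis gives the summed FPKM of each of 12 lists as a percent of the library total, on a log axis; each point is 1 library, 3 a tissue. Photosynthesis lists lie lower in the petiole than in both leaflet groups, while wall proteins, lignin enzymes, organ-specific proteins, pigment enzymes and defence proteins lie higher.

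Lignin genes leaned to the petiole. Lignin is the phenolic polymer that stiffens xylem vessels and fibres. Of 80 lignin monomer genes tested, 45 were higher and 22 lower in the petiole, 29 and 7 by at least 2-fold, with a median log2 change of 0.48. Caffeic acid 3-O-methyltransferase-like (arahy.I1E7E1.1, chromosome 10, 91153378 to 91160946), which methylates the precursors of syringyl lignin, was at 733, 726 and 756 FPKM in the petiole, 15.9, 16.1 and 16 in the terminal leaflet and 15, 14 and 15.2 in the lateral leaflet. The log2 change was 5.50 ± 0.032 (SE) (limma adjusted p = 4.4e-21), and the apex mean was 109 FPKM. The gene on chromosome 20 (arahy.S7NHY3.1) was at 555, 573 and 599 FPKM against 21.2 to 36 in the leaflets. Cinnamoyl-CoA reductase 1 (arahy.HXSC09.1, chromosome 13), the first enzyme committed to lignin monomers, was at 51.4, 50.04 and 51.7 FPKM against 5.59 to 6.8.

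Not every enzyme with a lignin name was higher in the stalk. A caffeoylshikimate esterase-like gene on chromosome 15 (arahy.R0L7V6.2) was at 0.51, 0.24 and 0.35 FPKM in the petiole, 41.1, 39.8 and 36.7 in the terminal leaflet and 26.4, 27.5 and 24.6 in the lateral leaflet, a log2 change of -4.60. Its chromosome 5 counterpart (arahy.NI1FRU.1) fell by 2.65, and a 4-coumarate--CoA ligase 2-like gene (arahy.SRT95Q.1, chromosome 6) by 1.63. Laccases and class III peroxidases, the oxidases that polymerize lignin, were called in both directions. Laccases gave 9 higher (39.1%) and 7 lower (30.4%) of 23. Peroxidases gave 15 higher (35.7%) and 20 lower (47.6%) of 42, near the shares of all genes (30.8% and 44.1%). Laccase-15 (arahy.4IVK6N.1, chromosome 9) was at 15.9, 16.6 and 15.3 FPKM in the petiole against 0.49 to 0.75 in the leaflets. Laccase-15-like on chromosome 5 (arahy.0C6ZNN.4) went the other way, at 3.12, 3.05 and 3.68 against 10.4 to 12.7. The most abundant laccase, laccase-17-like (arahy.CEFU99.1, chromosome 4), was at 8.93, 10.5 and 9.69 FPKM in the petiole, inside the leaflet range of 8.64 to 10.9 (limma adjusted p = 0.938).

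Among genes of secondary wall polysaccharides 27 of 39 were higher and 7 lower, but most changes were small, with 6 rises of at least 2-fold and a median of 0.42. Fasciclin-like arabinogalactan protein 12 (arahy.01BY0R.1, chromosome 18), of a group known from fibres and wood, was at 36.3, 36.8 and 31.9 FPKM in the petiole, 4.1, 4.91 and 4.19 in the terminal leaflet and 3.05, 2.97 and 3.76 in the lateral leaflet. COBRA-like protein 4 (arahy.3Y6UXK.1, chromosome 14), needed for cellulose deposition in secondary walls, rose by 1.07, to 5.55, 7.16 and 7.26 FPKM. Cellulose synthase A subunit 8 (arahy.L41MS4.2, chromosome 13), a secondary wall subunit, was lower in the petiole, at 5.08, 5.31 and 5.29 FPKM against 7.59 to 9.86, as were 2 IRX7 xylan genes. Of the 22 secondary wall regulators in the list, 6 passed the filter on low values, 2 higher and 1 lower.

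In the list of xylem cell death and cambium genes 8 of 14 were higher and 4 lower. The largest rises were genes for WALLS ARE THIN 1, a vacuolar auxin transporter known in Arabidopsis fibres. The chromosome 6 gene (arahy.ZA1VNW.1) was at 41.1, 46.8 and 42.9 FPKM in the petiole against 4.12 to 6.09 in the leaflets, a log2 change of 2.83. The most abundant gene of the list, also of that name (arahy.6JCP40.1, chromosome 8), was at 66, 64.9 and 67.5 against 16.3 to 18.6. The largest falls included genes for ACAULIS5, the thermospermine synthase that restrains xylem differentiation in Arabidopsis, which fell to 5.5, 6.28 and 4.87 FPKM from 23.7 to 28.4 on chromosome 16 (arahy.ITJF75.1) and by 1.83 on chromosome 6 (arahy.WG4WWJ.1). Other genes of either name were called in the other direction.

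Phloem genes leaned to the petiole, with 22 higher and 13 lower of 41 and a median of 0.37. SIEVE ELEMENT OCCLUSION B-like proteins form the P-protein filaments of legume sieve tubes. The chromosome 9 gene arahy.89XXPU.1 was at 23.8, 23.3 and 23.7 FPKM in the petiole, 0.15, 0.25 and 0.3 in the terminal leaflet and 0.14, 0.15 and 0.14 in the lateral leaflet, and its apex mean was 111 FPKM. The log2 change was 4.37 ± 0.039 (SE) (limma adjusted p = 7.25e-19). A second gene on chromosome 9, arahy.7FGL0C.2, was the most abundant phloem gene over the 9 libraries and differed little, at 26.6, 27.7 and 28.3 FPKM against 30.1 to 33.4 (log2 change -0.19, limma adjusted p = 0.00136). Callose synthase 7-like genes, whose Arabidopsis relative lines sieve pores with callose, were lower at the 3 named genes, by 1.25 to 1.63 on the log2 scale.

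Sucrose synthase, which splits sucrose for wall synthesis and respiration in sink and vascular tissue, was at 426, 424 and 436 FPKM in the petiole, 80.2, 82.1 and 83.1 in the terminal leaflet and 84.3, 83.1 and 86.8 in the lateral leaflet for the chromosome 14 gene (arahy.53FINS.2). Its log2 change was 2.35 ± 0.024 (SE) (limma adjusted p = 1.97e-18), and the apex mean was 530.1 FPKM. The chromosome 1 gene (arahy.LC98AP.2) was at 318, 316 and 321 FPKM against 85.1 to 93.7. Soluble acid invertases, which split sucrose in the vacuole, were lower in the petiole, with 0.31, 0.27 and 0.29 FPKM against 6.59 to 15.8 for the chromosome 3 gene (arahy.MS236J.1) and a log2 change of -2.11 for the chromosome 13 gene (arahy.0Q5BJB.2). Sucrose transport proteins on chromosomes 9 and 19, which in leaves load sucrose into the phloem, were lower as well. The chromosome 19 gene (arahy.8T8XTL.2) was at 1.13, 0.98 and 1.04 FPKM in the petiole against 10.9 to 16.2, and the chromosome 9 gene (arahy.1RV5TE.1) fell by 1.63.

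The named sugar transporters included SWEET exporters. SWEET3-like (arahy.7NL1KT.2, chromosome 16) was at 13.5, 13.2 and 12.8 FPKM in the petiole against 1.01 to 2, and SWEET17 (arahy.QI357H.1, chromosome 14), a vacuolar fructose carrier in Arabidopsis, at 4.88, 5.23 and 4.95 against 0.05 to 0.32. SWEET12 (arahy.9TLR89.1, chromosome 18), of the Arabidopsis pair that exports sucrose for phloem loading, fell by 1.38, and SWEET4-like (arahy.99ISIC.3, chromosome 3) by 1.18. The sucrose breakdown and synthesis list gave 14 higher (38.9%) and 17 lower (47.2%) of 36, beside 30.8% and 44.1% of all genes. Over the whole sugar transport list 19 of 50 were higher and 18 lower, and without the second petiole library the counts were 18 and 19.

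Peanut fixes nitrogen in root nodules and moves it upward as amides. Cytosolic glutamine synthetase, named the nodule isozyme, was at 361, 354 and 353 FPKM in the petiole against 69.5 to 76.5 in the leaflets on chromosome 5 (arahy.HA9E1Y.1), a log2 change of 2.26 ± 0.03 (SE) (limma adjusted p = 4.23e-17). The chloroplast isozyme, which recaptures photorespiratory ammonia, did the reverse, at 99.2, 94.9 and 98.5 FPKM against 258 to 293 on chromosome 4 (arahy.S2QYAG.1). Asparagine synthetase 1 (arahy.T7FQKJ.1, chromosome 17), which makes the transport amide asparagine, was at 34.3, 33.6 and 33 FPKM against 6.58 to 8.73. L-asparaginase 2, which releases its nitrogen, was at 0.77, 0.95 and 0.57 FPKM against 21.5 to 25.7 on chromosome 8 (arahy.XB7AYI.1), and fell by 1.91 at another gene (arahy.VH7VLJ.2, chromosome 16). The list as a whole gave 13 higher (35.1%) and 16 lower (43.2%) of 37, near the 30.8% and 44.1% of all genes. Under quantile normalization it gave 17 higher and 13 lower. The nitrate transceptor NRT1/PTR family 6.3 (arahy.0YB7S3.2, chromosome 11) rose to 8.97, 9.57 and 10.9 FPKM from 0.51 to 1.03. Nitrate, amino acid and peptide carriers gave 68 higher and 52 lower of 154. Aquaporins, the water channels, gave 12 higher (32.4%) and 19 lower (51.4%) of 37, again near the shares of all genes. PIP2-7 (arahy.W31NC6.1, chromosome 18) was up by 1.70, and TIP2-2 (arahy.G4J84I.1, chromosome 5) was at 0.08, 0.14 and 0.08 FPKM against 9.01 to 14.3. Potassium, phosphate and sulfate carriers gave 29 higher (35.8%) and 33 lower (40.7%) of 81, also near those shares. Their order turned to 36 higher and 23 lower under quantile normalization.

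**Figure D3:**
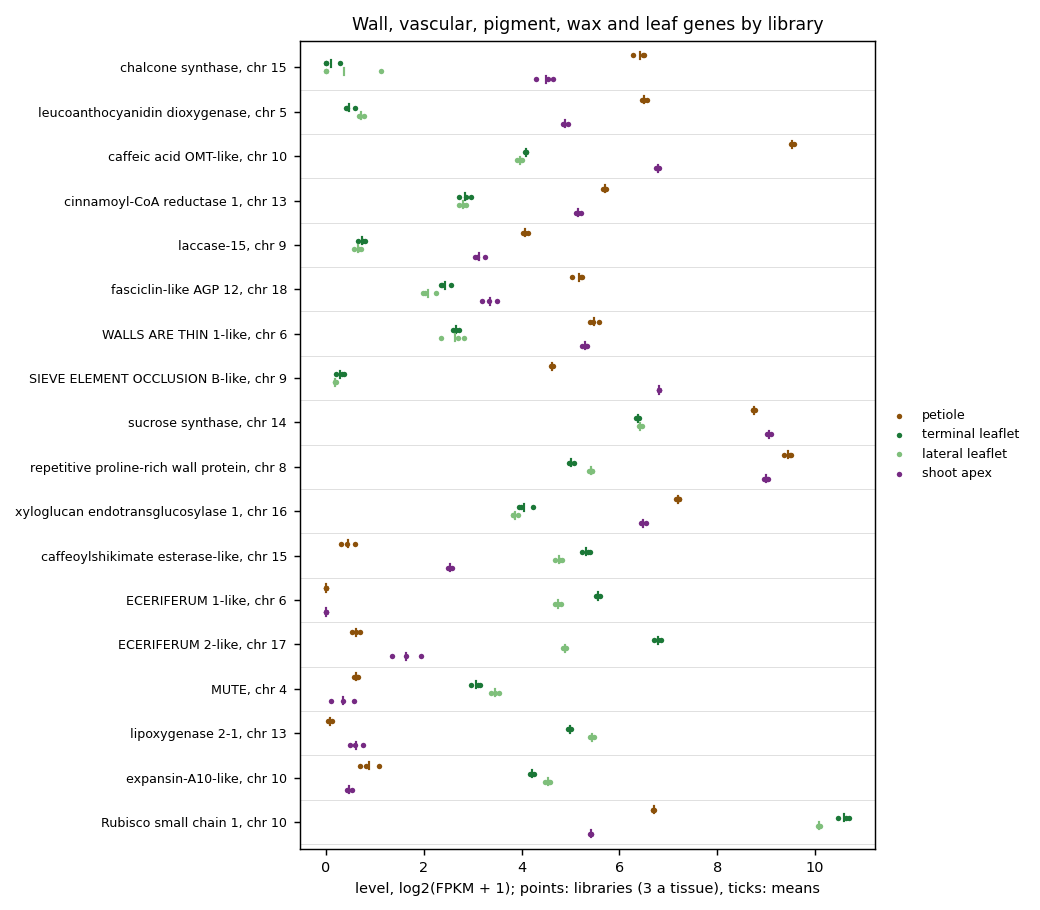
Levels of 18 named genes in log2(FPKM + 1) on the x axis, with 1 point per library, 3 a tissue, and a tick at each tissue mean. In the upper 11 genes all petiole libraries lie above all leaflet libraries, and in the lower 7 all lie below them.

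Structural wall proteins were among the most abundant petiole transcripts. Proline-rich proteins, extensins and arabinogalactan proteins gave 60 higher and 16 lower of 95. Extensin-3 (arahy.5H31LD.1, chromosome 9), a cross-linked wall glycoprotein, was the highest of the list at 5040.3, 4860.3 and 5276 FPKM in the petiole, 1244, 1033 and 1119 in the terminal leaflet and 1026, 1068 and 1108 in the lateral leaflet. Its wild-type apex libraries were at 4475.6 to 7228.2 FPKM. Repetitive proline-rich wall protein, known from legume stems, was at 713, 728 and 659.8 FPKM against 30.5 to 42.6 on chromosome 8 (arahy.XXCQ6D.1) and rose by 4.17 on chromosome 18 (arahy.IK7GC2.1). The list again held leaflet-high members: proline-rich protein 2 (arahy.6DE6RN.1, chromosome 8) was at 378, 373 and 366 FPKM in the petiole, 1994, 2019 and 1918 in the terminal leaflet and 1101, 1133 and 1083 in the lateral leaflet.

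Wall-loosening enzymes were mixed at the level of families. Xyloglucan endotransglucosylases, which cut and rejoin the tethers between cellulose fibrils, gave 20 higher and 10 lower of 37, and 15 of the rises were at least 2-fold. The pair named endotransglucosylase/hydrolase 1 on chromosomes 6 (arahy.63MW46.1) and 16 (arahy.B1AFV9.1) was at 152, 159.7 and 149 and at 149, 148 and 142 FPKM in the petiole, against 13.2 to 17.3 and 13.1 to 17.8 in the leaflets. The most abundant gene of the list, protein 9 (arahy.4KDK0P.2, chromosome 8), was lower, at 70.4, 69.4 and 68.05 FPKM against 90.5 to 141. Protein 6 (arahy.2QGA82.1, chromosome 15) fell by 2.79 on the log2 scale. Expansins, which loosen walls without cutting them, gave 19 higher and 16 lower of 43. Expansin-A11 (arahy.12B6U4.1, chromosome 6) was at 5.83, 6.66 and 6.7 FPKM in the petiole against 0.04 to 0.2 in the leaflets. Expansin-A10-like (arahy.H3QJL0.2, chromosome 10) did the reverse, at 0.63, 0.78 and 1.14 against 17.1 to 22.9. Pectin enzymes gave 72 higher and 54 lower of 155, led by pectate lyase 12 (arahy.1WT5S9.1, chromosome 6), at 18.4, 16.3 and 17.9 FPKM against 2.23 to 2.76. Primary wall cellulose synthases gave 10 higher and 4 lower of 19.

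The surface genes with the largest falls were ECERIFERUM genes of wax synthesis. ECERIFERUM 1 and ECERIFERUM 3 together make the alkanes of leaf wax in Arabidopsis, and ECERIFERUM 2 is needed for the longest fatty acid chains. ECERIFERUM 1-like (chromosome 6, 106057734 to 106068592) was listed at 0 in all 3 petiole libraries, at 45, 48 and 45.9 FPKM in the terminal leaflet and at 24.7, 26 and 27 in the lateral leaflet (limma adjusted p = 1.55e-18). ECERIFERUM 2-like (arahy.SWLP8S.2, chromosome 17) was at 0.45, 0.53 and 0.62 FPKM in the petiole, 114, 109 and 104 in the terminal leaflet and 29.2, 27.8 and 28.7 in the lateral leaflet. ECERIFERUM 3 (arahy.13YW1E.1, chromosome 3) was at 0.06, 0.24 and 0.06 FPKM in the petiole, 55.4, 57.8 and 59.4 in the terminal leaflet and 16.3, 16.6 and 15.9 in the lateral leaflet. All 3 genes were highest in the terminal leaflet and at or near 0 in the petiole. Other genes of the cuticle list were higher in the petiole than in the leaflets. Fatty acyl-CoA reductase 4 (arahy.C7JCTS.1, chromosome 8), which makes primary alcohols, was at 18.8, 17.8 and 20.1 FPKM against 0.13 to 0.48, with an apex mean of 5.07. Alkane hydroxylase MAH1-like (arahy.5EDI0X.1, chromosome 3) was at 6.52, 6.32 and 6.65 FPKM against 0 to 0.14, with an apex mean of 1.94. For 3-ketoacyl-CoA synthase 20-like (arahy.A9N57E.1, chromosome 20) the petiole, at 15.9, 15.4 and 14.9 FPKM against 0.11 to 0.24, lay below the apex mean of 42.5. In the whole cuticle list 52 of 94 genes were lower (55.3%) and 30 higher (31.9%), beside 44.1% and 30.8% of all genes. Lipid-transfer proteins gave 14 higher and 10 lower of 32.

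MUTE, the regulator that ends the stem-cell-like divisions of the lineage in Arabidopsis, was at 0.5, 0.55 and 0.57 FPKM in the petiole against 6.82 to 10.6 in the leaflets on chromosome 4 (arahy.K3IFFD.1), and fell by 2.41 on chromosome 14 (arahy.9C3IJ5.1). EPIDERMAL PATTERNING FACTOR-like 9, the mesophyll peptide that promotes stomata and is also called stomagen, was at 6.11, 5.94 and 8.79 FPKM in the petiole, 40.7, 39.1 and 38.1 in the terminal leaflet and 36.6, 41.8 and 38.9 in the lateral leaflet (arahy.7YS827.1, chromosome 9). EPIDERMAL PATTERNING FACTOR-like 5 did the reverse, at 56.4, 57.1 and 58.3 FPKM in the petiole against 1.39 to 2.58 on chromosome 9 (arahy.XJM4PX.1). That peptide belongs to the subgroup known in Arabidopsis to act in inner stem tissues. SCREAM2-like (arahy.J2FWCG.1, chromosome 8) was also higher, at 27, 26.4 and 25.6 FPKM in the petiole against 4.55 to 5.56 in the leaflets. Of 36 genes in the list, 20 were lower and 13 higher (median -0.59).

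Class I KNOX genes keep cells undifferentiated in the shoot apex and, in many compound-leaved species, in the young leaf as well. Homeobox protein knotted-1-like 1 (arahy.U5Q1QL.1, chromosome 9, 25202366 to 25211803) was at 19.3, 19 and 17.1 FPKM in the petiole, 0.07, 0.1 and 0.1 in the terminal leaflet and 0.04, 0.14 and 0.11 in the lateral leaflet. The log2 change was 4.15 ± 0.086 (SE) (limma adjusted p = 4.73e-15), and the petiole stood above the apex mean of 6.04 FPKM. A gene of the same name on chromosome 15 (arahy.S28ZE3.1) was at 6.96, 8.04 and 6.99 FPKM against 0 to 0.31 in the leaflets, with an apex mean of 7.38. Of 18 class I genes, 8 were higher, 3 of them by at least 2-fold, 0 lower and 10 not called. The whole list summed to only 28.8 to 31 FPKM in the petiole, against 235 to 247.9 in the wild-type apex. Whether some of the 8 also passed the filter on low values only through apex libraries was not examined. The 10 not called were at or under 0.77 FPKM in all 9 petiole and leaflet libraries, with apex means of 6.13 to 28.6 FPKM. They passed the filter on low values only through apex libraries, so their excess in the apex is set by that filter, and they make up the larger share of the class I genes tested. Among them, named after their values were seen, SBH1-like (arahy.VD5ZG0.1, chromosome 4) was listed at 0 in all 9 libraries and had an apex mean of 13 FPKM. The genes LET6 (arahy.EUX0L6.1, chromosome 7) and SBH1 (arahy.FN3HAQ.1, chromosome 11) reached 0.03 and 0.12 FPKM in any of these 9.

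Class II KNOX genes, which in Arabidopsis oppose class I and promote differentiation, were all lower. All 8 genes of the list fell by at least 2-fold, with a median of -1.93. Knotted-1-like 4 (arahy.F096Y2.1, chromosome 1) was at 1.08, 1.35 and 1.07 FPKM in the petiole against 10.5 to 14.2 in the leaflets, and knotted-1-like 13 (arahy.D8MTW4.1, chromosome 3), the most abundant, at 6.04, 6.65 and 6.13 against 21 to 26.4. BELL homeodomain proteins, the partners of KNOX proteins, gave 10 higher and 9 lower of 24. The largest rises were BEL1-like 9 genes, while another gene of that name was lower. The one on chromosome 2 (arahy.AL7WCM.1) was at 10.6, 10.4 and 10.5 FPKM against 0.17 to 0.37 in the leaflets, and the one on chromosome 18 (arahy.CFLV5S.1) had a log2 change of 2.78. BEL1-like 4, of the subgroup that restrains leaf margin outgrowth in Arabidopsis, was among the largest falls. It stood at 1.86, 1.09 and 1.83 FPKM against 29.4 to 32.7 on chromosome 15 (arahy.69CRNN.3) and fell by 3.57 on chromosome 5 (arahy.DWSH38.1).

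Boundary genes mark the zones where organs separate. In that list 22 of 29 genes were higher and 1 lower, with 13 rises of at least 2-fold and a median of 0.81. LIGHT-DEPENDENT SHORT HYPOCOTYLS 4-like (arahy.0BJ33Y.1, chromosome 9), of the ALOG family, was at 20.1, 19.4 and 20.2 FPKM in the petiole, 0.43, 0.25 and 0.26 in the terminal leaflet and 0.15, 0 and 0.16 in the lateral leaflet. LIGHT-DEPENDENT SHORT HYPOCOTYLS 1 (arahy.7VWF6Q.1, chromosome 16) was at 16.4, 15.2 and 13.5 FPKM in the petiole, and 5 of the 6 leaflet libraries were listed at 0. Both were higher still in the apex, with means of 44.3 and 51.1 FPKM. LOB-domain genes gave 20 higher and 2 lower of 26, led by LOB domain-containing protein 21-like (arahy.U9CUV0.1, chromosome 7), at 30, 28.9 and 30.4 FPKM against 0.65 to 1.65.

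CIN-type TCP factors limit cell division and drive differentiation in the blade. TCP13-like (arahy.N9U68C.1, chromosome 10, 110274281 to 110276042) was at 0.99, 1.12 and 0.85 FPKM in the petiole, 72.5, 67.7 and 66.2 in the terminal leaflet and 74.8, 77.2 and 74.7 in the lateral leaflet. Its log2 change was -5.20 ± 0.085 (SE) (limma adjusted p = 3.26e-16), and the apex mean of 1.2 FPKM was close to the petiole. TCP3-like (arahy.7QL5S6.1, chromosome 3) was at 4.97, 4.78 and 5.04 FPKM against 101 to 125, and TCP2-like (arahy.JF9204.2, chromosome 3) at 16.9, 18.3 and 17.3 against 127 to 149. Over the whole TCP list 12 of 18 were lower and 5 higher. The leading rises were TCP14 genes, which belong to the other TCP class; TCP14 on chromosome 11 (arahy.Q9YRAB.1) was at 57.3, 56 and 60.8 FPKM against 13.1 to 18.3.

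YABBY factors specify the lower leaf side and blade expansion, and 9 of 13 were lower and 2 higher (median -0.98). YABBY 1 (arahy.GE3GK9.1, chromosome 12) was at 0.46, 0.37 and 0.27 FPKM in the petiole, 21.3, 22.2 and 23.4 in the terminal leaflet and 19.9, 21.6 and 21.1 in the lateral leaflet, and its apex mean was 41.9. The HD-ZIP III and KANADI list gave 15 higher and 4 lower of 19. KANADI factors also act on the lower side, and the 3 rises named from the list were KAN1 genes. The chromosome 7 KAN1 gene (arahy.J44A69.1) was at 12.2, 12.2 and 12.1 FPKM against 1.16 to 1.54, a log2 change of 2.46. The largest falls of the list were REVOLUTA genes, for an upper-side and vascular HD-ZIP III factor, which fell by 0.45 to 0.64 on the log2 scale. Growth-regulating factors and their GIF partners, which promote cell proliferation, were higher for 20 of 23 and lower for 1 (median 1.31). The list summed to 267.1 to 278.4 FPKM in the petiole and to more, 524.9 to 540.5, in the wild-type apex. Growth-regulating factor 4-like on chromosome 15 (arahy.AFHS7R.1) was at 16.1, 14.9 and 14.9 FPKM in the petiole against 2.5 to 3.55 in the leaflets, and factor 5-like on chromosome 9 (arahy.21S57B.1) at 5.2, 5.7 and 5.32 against 0.16 to 0.53.

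**Figure D4:**
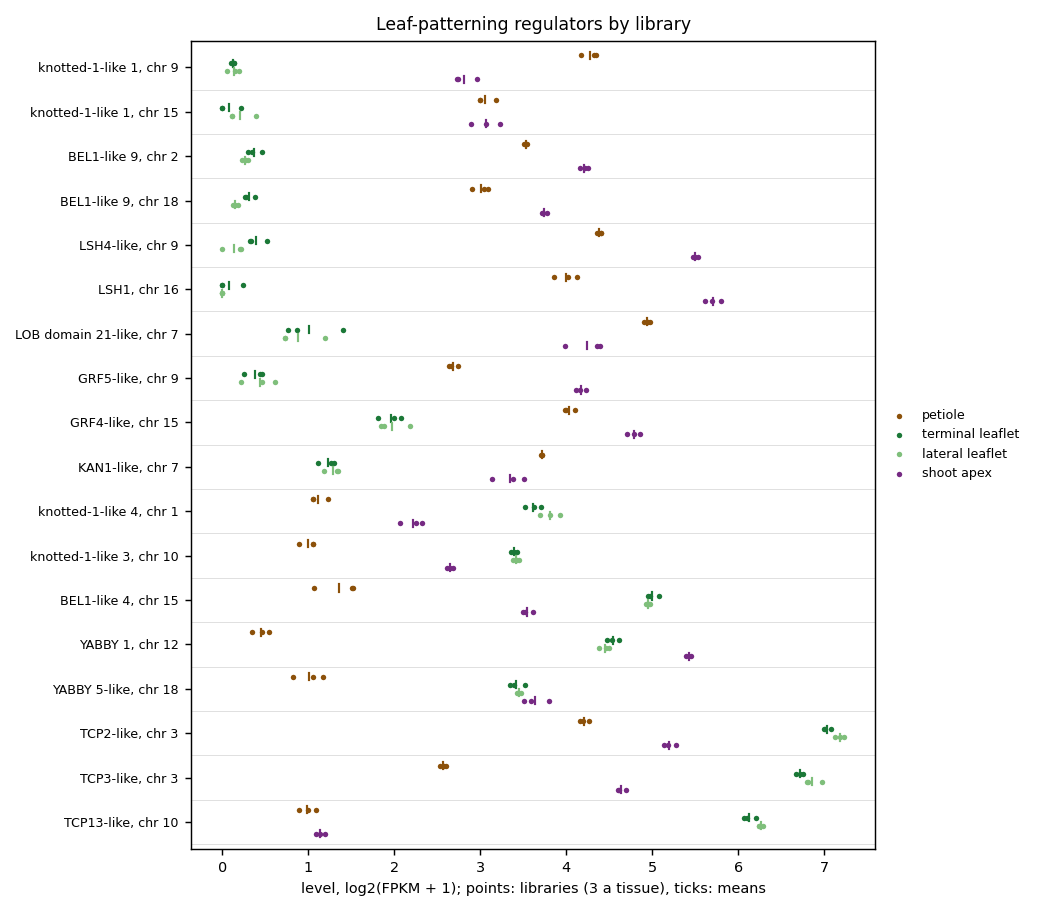
Levels of 18 named regulators in log2(FPKM + 1) on the x axis, with 1 point per library, 3 a tissue, and a tick at each tissue mean. The upper 10 (class I KNOX, BEL1-like 9, boundary, GRF and KANADI genes) lie above all leaflet libraries in the petiole, and the lower 8 (class II KNOX, BEL1-like 4, YABBY and TCP genes) lie below them.

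Division genes leaned to the leaflets. Cell division genes were lower for 91 of 130 and higher for 20 (median -0.33), and histones were lower for 28 of 35 (median -0.81). Histone H2A.1 (arahy.X2TMD6.1, chromosome 3) was at 37.6, 38.6 and 39.7 FPKM in the petiole, 121, 128 and 131 in the terminal leaflet and 149.6, 146 and 148 in the lateral leaflet. The 3 histones that rose were 2 genes for H3.3, the replication-independent form of histone H3, and 1 for an H2A variant; H3.3 on chromosome 5 (arahy.XS4H76.1) rose by 0.42. Cyclin-D1-1 was at 28.4, 28.7 and 27.7 FPKM against 5.63 to 7.31 on chromosome 5 (arahy.GKYN88.1), and cyclin-D6-1 on chromosome 20 (arahy.V2AQ6U.1) was at 6.07, 5.97 and 5.29 against 55.9 to 57.3.

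Auxin genes were mainly petiole-high. Aux/IAA repressors and auxin response factors gave 69 higher and 20 lower of 105, with 40 rises of at least 2-fold and a median of 0.63. Auxin response factor 6-like (arahy.H2NMKM.3, chromosome 10) was at 51.3, 50.5 and 49.7 FPKM in the petiole, 7.55, 7.88 and 7.88 in the terminal leaflet and 7.12, 7.41 and 7.31 in the lateral leaflet. Its wild-type apex mean was 65.56 FPKM. IAA29-like (start at 98874826, chromosome 1), whose Arabidopsis relative responds to shade, was the largest fall, at 1.44, 2.23 and 2.6 FPKM against 18.4 to 28.5. Auxin carriers gave 24 higher and 7 lower of 37. Small auxin-up RNAs gave 32 higher and 11 lower of 62.

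Gibberellin promotes stem and petiole elongation. Its list gave 25 higher and 12 lower of 41. Among its largest rises and falls, single genes of successive enzymes of synthesis went in different directions. The other genes of these enzymes were not counted apart. Gibberellin 20-oxidase 2 (arahy.BLJ7SD.1, chromosome 3) was at 0.04, 0 and 0.03 FPKM in the petiole against 5.59 to 8.95 in the leaflets. The final activating enzyme, gibberellin 3-beta-dioxygenase 1-like (arahy.K8MVYG.1, chromosome 19), was the reverse, at 11.8, 12.4 and 13.7 against 0.74 to 2.75. Gibberellin-regulated protein 4 (arahy.F1TUFL.1, chromosome 20), a small cysteine-rich wall peptide, was at 129, 131 and 128 FPKM against 16.1 to 17.9.

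Aminocyclopropane-carboxylate oxidase makes ethylene. Its isoform on chromosome 8 (arahy.1X31DU.1) was at 70.5, 73.7 and 70.9 FPKM in the petiole against 5.56 to 8.74 in the leaflets, and the isoform on chromosome 7 (arahy.66YX65.1) at 3.39, 3.47 and 2.56 against 36.1 to 53.2. Linoleate 13S-lipoxygenase 2-1 (arahy.VY5ZYI.4, chromosome 13), a chloroplast enzyme at the head of jasmonate and leaf volatile synthesis, was at 0.05, 0.03 and 0.09 FPKM in the petiole, 30.5, 30.1 and 31.4 in the terminal leaflet and 41.9, 44 and 40.9 in the lateral leaflet. A 9S-lipoxygenase-like gene (arahy.NDAY03.1, chromosome 19) was instead at 969, 948 and 958 FPKM in the petiole against 354 to 403, and allene oxide synthase 3 (arahy.H8DQQQ.1, chromosome 13) at 15.3, 15.2 and 13.9 against 0.24 to 0.42. The jasmonate list gave 36 higher and 19 lower of 68, and the ethylene list 11 and 6 of 23.

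Cytokinin and abscisic acid genes were called at shares near those of all genes tested, of which 30.8% were higher and 44.1% lower. Cytokinin genes gave 18 higher (30.5%) and 26 lower (44.1%) of 59, with a median of -0.04 that became 0.10 under quantile normalization. A LOG enzyme, which frees active cytokinin, was at 0.15, 0.23 and 0.27 FPKM in the petiole against 6.31 to 12 on chromosome 13 (arahy.RA52CN.1), and cytokinin dehydrogenase 1 (arahy.SZ0H4I.1, chromosome 7), which degrades it, at 6.66, 6.17 and 6.24 against 25.9 to 36.5. The response regulator ARR5 (arahy.L8Y5Z3.1, chromosome 15), a cytokinin-induced gene in Arabidopsis, was higher, at 13.6, 15.4 and 13 FPKM against 3.55 to 4.52. Abscisic acid genes gave 12 higher (27.9%) and 19 lower (44.2%) of 43 (median -0.09, and 0.03 under quantile normalization). The catabolic abscisic acid 8'-hydroxylase 2 (arahy.7V58Y4.1, chromosome 20) was at 0.14, 0.07 and 0.61 FPKM against 12.3 to 15.6. Brassinosteroid genes gave 11 higher and 12 lower of 25, and 12 and 11 under quantile normalization. BRI1 kinase inhibitor 1-like (arahy.2LG1YU.1, chromosome 8), which holds back the brassinosteroid receptor, was at 3.08, 2.79 and 3.45 FPKM against 32 to 46.1.

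Light signalling genes gave 12 higher (31.6%) and 17 lower (44.7%) of 38, also near the shares of all genes, and 17 and 14 under quantile normalization. Phototropin-2-like (arahy.STDR6Y.2, chromosome 1), a blue-light receptor for chloroplast movement, was at 2.12, 2.07 and 2.42 FPKM in the petiole against 11.7 to 16 in the leaflets. PIF3 on chromosome 19 (arahy.00JV9G.1), a phytochrome-interacting factor, was the reverse, at 11.9, 11.4 and 10.9 against 2.55 to 3.72. A PIF3-like gene on chromosome 9 (arahy.5Q88N2.1) was lower in the petiole, at 3.57, 3.88 and 3.52 FPKM against 10.07 to 12.02. The hour of harvest is not in the labels. In the clock list 7 of 37 genes were higher (18.9%) and 17 lower (45.9%), beside 30.8% and 44.1% of all genes. It held no rise and 4 falls of at least 2-fold. Its median of -0.13 was close to that of all genes and became 0.04 under quantile normalization. APRR5 (arahy.V64N20.2, chromosome 12), an evening-phased gene in Arabidopsis, was at 22.9, 22.3 and 23 FPKM against 43 to 49.4, and GIGANTEA-like (arahy.AF3FG0.1, chromosome 5) at 7.91, 8.17 and 9.33 against 2.92 to 6.27. The part of harvest time in the other results was not tested.

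Pigment genes held some of the largest rises. Flavonoid and anthocyanin genes gave 54 higher and 19 lower of 91, 30 and 11 by at least 2-fold. Chalcone synthase (arahy.QZN0LQ.1, chromosome 15, 18595150 to 18597004), the entry enzyme of the pathway, was at 89.7, 88.3 and 77.1 FPKM in the petiole, 0, 0.23 and 0 in the terminal leaflet and 1.18, 0 and 0 in the lateral leaflet. The log2 change was 6.19 ± 0.2 (SE) (limma adjusted p = 1.69e-12). Leucoanthocyanidin dioxygenase, a late step towards anthocyanins, was at 93.3, 89.98 and 86.7 FPKM against 0.33 to 0.71 on chromosome 5 (arahy.AQ6B1J.1) and at 79.4, 84.7 and 76.7 against 0.14 to 0.92 on chromosome 15 (arahy.UQ0Z3E.1). Dihydroflavonol 4-reductase (arahy.7JZ58T.1, chromosome 16), the step before it, was at 62.1, 61 and 62.5 FPKM against 0.47 to 0.94; it lies outside the naming rule and was picked after its values were seen, and another gene of the table has the same values. The isoflavonoid branch was partly the reverse, with isoflavone 3'-hydroxylase-like on chromosome 3 (arahy.I1XSYN.1) at 0.53, 0.56 and 0.37 FPKM in the petiole against 13.5 to 21.9 in the leaflets.

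Defence proteins were mainly higher in the petiole than in the leaflets, with 112 higher and 34 lower of 196 and a median of 0.32. The list summed to 5511 to 5649 FPKM in the petiole and to more, 8527 to 8666, in the wild-type apex. A lectin, CPL (arahy.R1XS8N.1, chromosome 19), was the most abundant, at 1351, 1344 and 1337 FPKM in the petiole, 52.6, 51.5 and 54.1 in the terminal leaflet and 45.4, 46.3 and 45.3 in the lateral leaflet. CPL-like on chromosome 9 (start at 119313160) was the reverse, at 0.24, 0.84 and 0.3 FPKM in the petiole, 11.4, 10.7 and 10.1 in the terminal leaflet and 58.5, 60.9 and 59.5 in the lateral leaflet. Its lateral leaflet libraries all lay above the terminal ones. Pathogenesis-related protein 1-like (arahy.W6C7L5.1, chromosome 20) was at 31.9, 32.1 and 28 FPKM in the petiole, with 5 of 6 leaflet libraries listed at 0. Endochitinase-like (arahy.AK92GL.1, chromosome 1) was at 38.3, 36.4 and 38.3 FPKM against 0.1 to 0.32, and endochitinase (arahy.BYM6W0.1, chromosome 1) at 0.14, 0.08 and 0.13 against 7.92 to 12.1. Heat shock genes gave 52 higher (45.2%) and 35 lower (30.4%) of 115, beside 30.8% and 44.1% of all genes. Of these, 7 rises and 12 falls were of at least 2-fold.

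**Figure D5:**
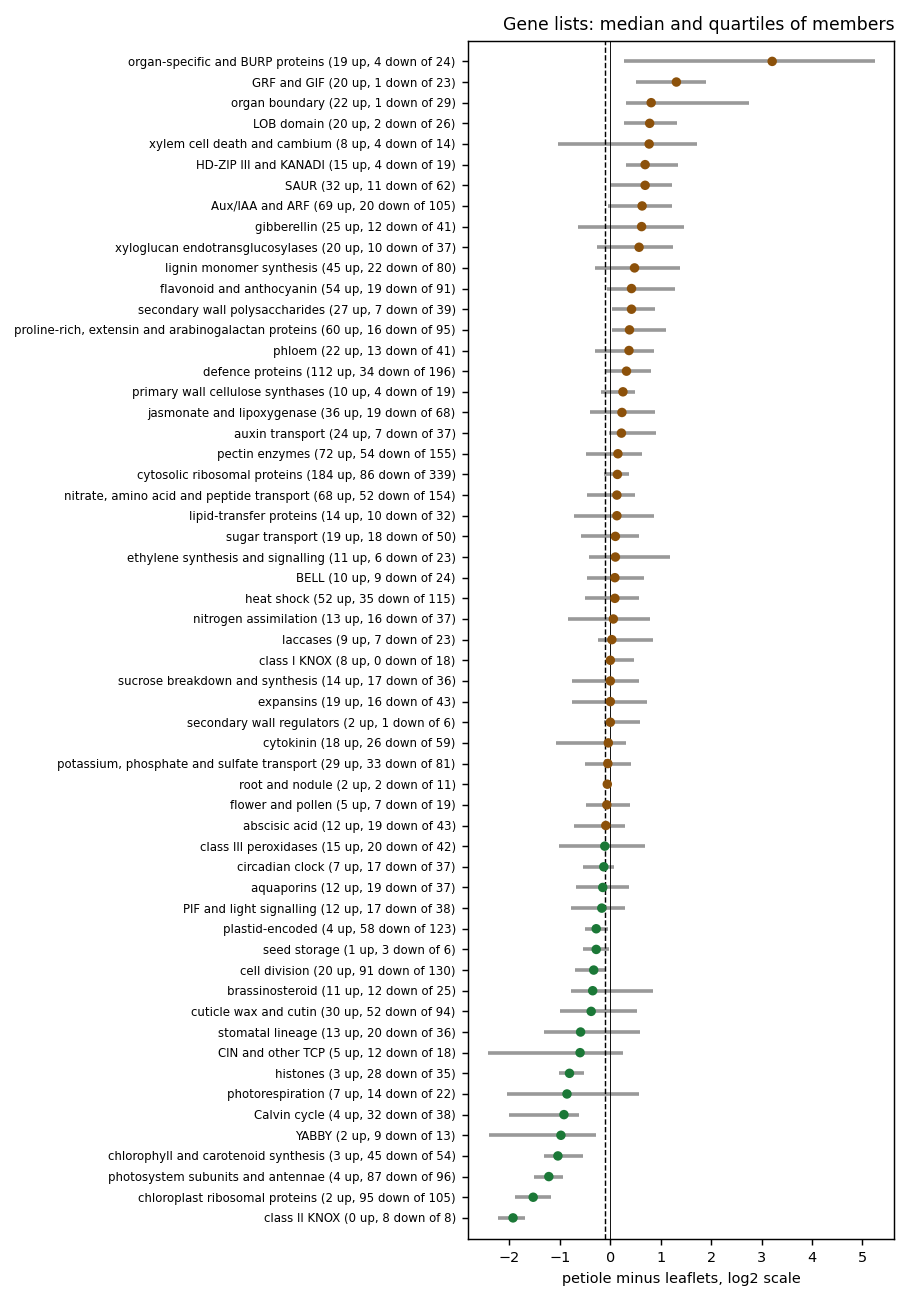
Each row is 1 of 57 gene lists, with the median log2 change of its tested members (petiole minus leaflets) as a point and the quartiles as a grey bar; the label gives the numbers called higher (up) and lower (down). The dashed line is the median of all genes tested, -0.11, and points are brown above it and green at or below it.

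Root and nodule genes summed to 63.9 to 68.2 FPKM in the petiole, 58.7 to 59.7 in the terminal leaflet and 59.6 to 65 in the lateral leaflet, with 2 higher and 2 lower of 11 tested and 3 of 22 members listed at 0 in all 9 libraries. Seed storage genes, a list that does not hold the glutelin type-A 2 genes described above, summed to 8.42 to 9.61, 11.1 to 12.8 and 12.3 to 13.3 FPKM in the same order, with 1 higher and 3 lower of 6 and 1 of 26 at 0 in all 9. Flower and pollen genes summed to 439 to 504 FPKM in the petiole against 87.4 to 93 and 94.9 to 95.3 in the leaflets. Of 19 tested, 5 were higher (26.3%) and 7 lower (36.8%), beside 30.8% and 44.1% of all genes, and none of 50 members was at 0 in all 9. Most of that petiole sum came from a pair of genes named pollen-specific leucine-rich repeat extensin-like protein 3, at 220.2, 202 and 233 FPKM on chromosome 15 (arahy.RUJ0QA.1) and 205, 187 and 214 FPKM on chromosome 5 (arahy.V89RV5.1). Both are wall proteins and were also present in the apex, at means of 156 and 170.1 FPKM. The part of other cell types in the results above was not tested.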

How the data were processed

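The authors deposited 1 table of 59878 genes with FPKM values to 2 decimals for 15 libraries in 5 groups of 3, made from TRIzol RNA of cultivated peanut with random-primed cDNA per the labels' protocols. Neither labels nor file headers name an aligner, a quantifier or a sequencing depth, and these were not given in the sources used here. Counts are not part of what was analysed, so no count model was run. The deposited log2 ratios and q-values of petiole against each leaflet group come from a test that the file headers do not name, and only their direction and counts were used.

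From the FPKM, log2(FPKM + 1) was computed, keeping genes that reached 1 FPKM in 3 or more of the 15 libraries. A linear model over the 5 groups was fitted with limma 3.58.1 in R 4.3.3 (empirical Bayes with trend and robust options). The contrast was petiole minus the mean of both leaflet groups, and Benjamini-Hochberg adjusted p-values over all 39031 genes were called at 0.05. The script was tested on simulated data. Gene lists were made from product names in the deposited table, and the members and lists were chosen with earlier results of these data known. Genes named in the text are the 12 largest rises and 12 largest falls (no overlap, mean of 5 FPKM or more in the higher tissue, 1 per product), and in each list up to 3 with the largest rise, up to 3 with the largest fall, and the one with the highest mean. Exceptions are stated where they appear. Alternatives covered the pseudocount, the filter, 3 other scalings, the leaflet reference, the libraries in the fit, a replicate block and each replicate left out. The authors' q-values were not recomputed. Mutant apex values entered the estimate of spread, the filter on low values and the count of genes with identical values. One result on a named gene is not reported here.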

Additional observations from a re-analysis of the deposited data

How the results depend on the processing

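The counts of genes higher and lower in the petiole stayed within 1.5 times the reported ones under all alternatives tried, but their order depended on the scaling. With quantile normalization 15111 genes were higher and 13656 lower (52.5% of calls higher, against 41.1% with FPKM as deposited), with median-of-ratios scaling 14586 and 14456 (50.2%), and with equal library totals 12683 and 16354 (43.7%). With a pseudocount of 0.1 in place of 1, 3520 genes were at least 2-fold higher and 6824 at least 2-fold lower, as low genes then count with larger changes; the counts of calls were 12026 and 17045. Without the filter on low values 13031 and 19831 genes were called, with the terminal leaflet alone as reference 11708 and 15984, with the lateral leaflet alone 11134 and 16790, and with the 9 petiole and leaflet libraries only 11818 and 17098. Counting genes with identical values once, a choice made after seeing the data, gave 11664 and 16754. Leaving out 1 replicate at a time gave 11328 to 11858 genes higher and 16307 to 16980 lower. The replicate block gave 11954 and 17160. Deviations of same-numbered libraries correlated at -0.05 to 0.01, and 0 of 9 libraries were closest to their own number. No deviation shared by number was thus seen, which cannot show whether same-numbered libraries came from the same plants. Over 367 named genes and 18 settings for each, 6565 values kept their call status, and genes called in the main fit also kept direction there. A further 29 lost the call, 7 gained it and 5 values of called genes changed sign. Changes of sign at genes not called in the main fit were not counted. Among those that changed sign, SAUR50 (arahy.32LLN4.1) was at -0.11 and REVEILLE 7 (arahy.9UXU7A.1) at -0.46 against the terminal leaflet alone. Also among them were 3 copies of chloroplast ribosomal protein S7 (arahy.8K22SI.1, arahy.MUY2HZ.1, arahy.P3G9EK.1), at -0.10 against the lateral leaflet alone. The cause was not tested. With 3 libraries a group and values to 2 decimals, levels under about 1 FPKM carry few fragments.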

Other observations

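Saponin genes, a set picked after their values were seen, were mainly higher in the petiole. Of 27 tested genes whose product is named for beta-amyrin or soyasaponin, 24 were higher and 3 lower, 19 and 0 by at least 2-fold, with a median log2 change of 1.72 against -0.11 for all genes. Beta-amyrin synthase, which closes the triterpene ring, was at 113, 111 and 109.8 FPKM in the petiole against 15 to 16 in the leaflets on chromosome 14 (start at 555783) and at 131, 136 and 133 against 23.3 to 36.4 on chromosome 4 (arahy.7IXS5T.2). Beta-amyrin 24-hydroxylase, a later step towards soyasaponins, was at 151, 148 and 142 FPKM against 9.85 to 12.2 on chromosome 4 (arahy.IT7QFA.1) and at 22.6, 22.1 and 21.4 against 0 to 0.05 on chromosome 14 (arahy.3B1CVE.1). All 4 genes stood above all leaflet libraries in the petiole. In the order named, their wild-type apex means were 111, 107.1, 129.5 and 33.7 FPKM, so high levels were not particular to the petiole.

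By the transcription factor families that the deposited table assigns, 705 of 2043 tested factors were higher and 833 lower. Their median log2 change was -0.05, beside -0.11 for all genes tested, of which 30.8% were higher and 44.1% lower. GRF genes were higher for 20 of 22, 13 of them by at least 2-fold. Dof genes, several of which act in vascular tissue in Arabidopsis, were higher for 32 of 51 (12 by at least 2-fold) with 10 lower. SBP genes were higher for 22 of 33 (4 by at least 2-fold) with 7 lower. MADS genes were lower for 32 of 46 (16 by at least 2-fold) with 5 higher. Sigma70-like factors, which direct the plastid's bacterial-type RNA polymerase, were lower for 12 of 12, 5 of them by at least 2-fold. VARL genes were lower for 10 of 10, but 0 of them by at least 2-fold. mTERF genes, which act in organelle gene expression, were lower for 36 of 60 (10 by at least 2-fold) with 4 higher. WUSCHEL-related homeobox 5-like (arahy.4BW8FX.1, chromosome 13), named after its values were seen, was at 0.07, 0 and 0 FPKM in the petiole and 7.8 to 8.15 in the leaflets.

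Nearly exclusive genes were few. At 10 FPKM or more in all petiole libraries and under 1 in all leaflet libraries stood 66 genes, of which 43 also had an apex mean of 10 FPKM or more and 2 an apex mean under 1. The reverse held for 62 genes, of which 4 had an apex mean of 10 FPKM or more and 38 one under 1. Both sets count some pairs of genes with the same mean levels, such as arahy.7JZ58T.1 with arahy.X8EVF3.1 and arahy.5BV5EP.1 with arahy.D6LT1N.1. On chromosomes 1 to 10, which carry one ancestral chromosome set of peanut, 31% of 17872 genes were higher and 43.8% lower, and on chromosomes 11 to 20, which carry the other, 30.5% of 20917 were higher and 44.5% lower.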
